A study of Mus musculus with 2 samples.

Results

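The 9 genes described here are those by which mouse eosinophils are commonly told apart: the granule proteins Epx, Prg2 and Prg3, the eosinophil-associated ribonucleases Ear1, Ear2, Ear6 and Ear10, and the surface proteins Siglecf and Il5ra. They were chosen by name, with earlier results of these data known, and each of the 9 was found among the 55487 gene IDs of the deposited count table. Expression was measured by RNA sequencing in 2 cultures of mouse bone marrow cells, each transduced with a retrovirus for a form of EVI1, the zinc finger transcription factor of the Mecom locus. The first held pMYs-IG_3xHA-EVI1+18, a vector for a splice form of EVI1 (EVI1+18), and the second held pMYs-IG_3xHA-EVI1-WT, a vector for wild-type EVI1 (EVI1-WT). Both began as C57BL/6 marrow cells depleted of lineage-positive cells, which were sorted for the green fluorescence of the vector and grown for about 3 weeks in MethoCult M3434. That medium is a methylcellulose in which myeloid and erythroid colonies form, and it is supplied with stem cell factor, interleukin 3, interleukin 6 and erythropoietin but no interleukin 5. Both cultures carried stable retroviral overexpression of an HA-tagged EVI1, and no culture without an EVI1 vector was analysed here.

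There was 1 library for each form, so nothing here was checked across replicate cultures and no p-value is given. In EVI1+18, 20981903 counts fell on 21037 genes, and in EVI1-WT 20480447 counts fell on 21013 genes. Levels are given as scaled CPM, which are counts relative to the library total after TMM scaling. Intervals are 95% exact counting intervals, which compare these libraries and not the vectors. A gene was called lower or higher in EVI1+18 when its whole interval lay below 1/2 or above 2, among the 13183 genes of at least 1 scaled CPM in either library. Mecom stood at 209 scaled CPM in EVI1+18 and 180 in EVI1-WT. Whether that count holds transcripts of the vector besides those of the locus was not tested, and it does not tell the 2 forms apart.

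Eosinophils store cationic proteins in specific granules, among them eosinophil peroxidase, the major basic proteins and small secreted ribonucleases, which damage parasites and tissue when released. They arise from marrow progenitors through interleukin 5, which binds an alpha chain particular to that cytokine and a beta chain shared with the receptors for interleukin 3 and GM-CSF. Siglec-F, a sialic acid-binding lectin with inhibitory motifs, is present on mature mouse eosinophils and also on some tissue macrophages.

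Transcripts of the granule proteins were lower in the EVI1+18 library, whereas Siglecf was higher there. Epx stood at 59.0 scaled CPM in EVI1+18 and 442 in EVI1-WT, and Prg2 at 78.9 in EVI1+18 and 365 in EVI1-WT. Siglecf ran the other way, at 24.1 scaled CPM in EVI1+18 and 5.69 in EVI1-WT. Of the 9 genes, 6 passed the expression filter, each of them with at least 1 scaled CPM in both libraries, and 3 (Ear1, Ear2 and Ear10) did not. Of those 6, 5 were called lower in EVI1+18, where 5.10% of all genes tested were called lower, and 1 was called higher, where 5.05% were. The median log2 ratio over these 6 genes was -2.01, beside 0.01 over all genes tested. Since the genes were chosen with earlier results known, these counts describe them and support nothing further. Since RNA was taken from whole cultures, a different number of cells with these transcripts and a different level per cell cannot be told apart. Which cells held them was not tested.

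**Figure D1:**
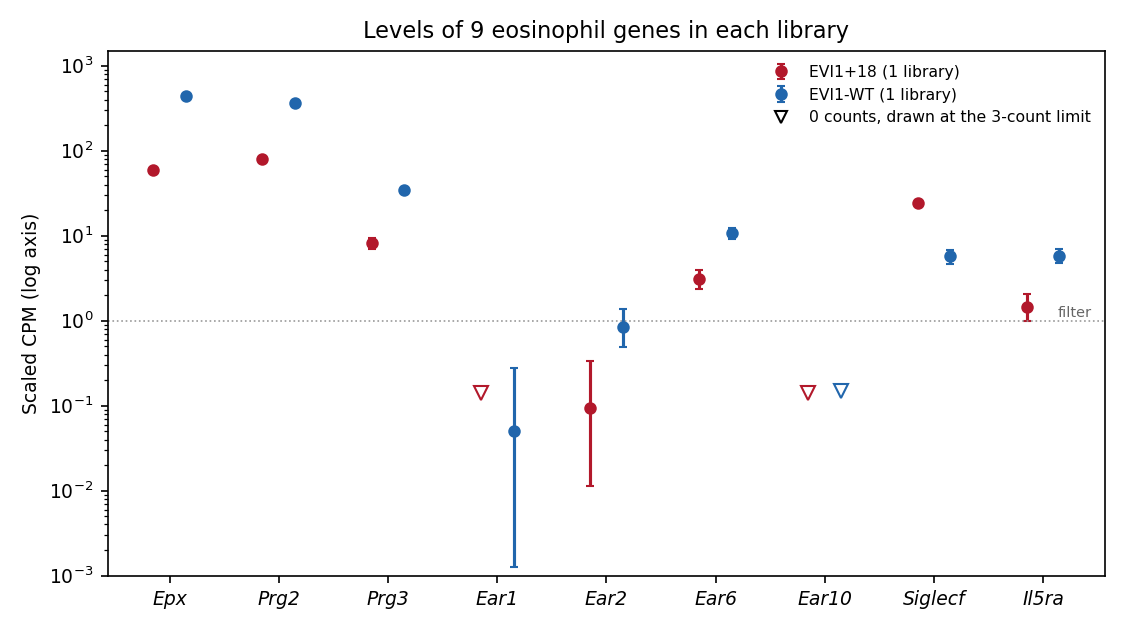
Scaled CPM (log axis) of the 9 eosinophil genes in the EVI1+18 library and the EVI1-WT library; points are the single library of each form, bars are 95% counting intervals, and open triangles are genes at 0 counts, drawn at the limit of 3 counts. Siglecf is the gene past the filter whose EVI1+18 point lies above its EVI1-WT point, at 24.1 beside 5.69 scaled CPM.

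Epx encodes eosinophil peroxidase, which makes hypobromous acid from bromide. It lies on the minus strand at chr11:87864000-87875536 (GRCm38). It had 1267 counts in EVI1+18 and 8853 in EVI1-WT, a level 7.49-fold lower in EVI1+18 (95% counting interval 7.06 to 7.95). Of all genes tested, 1.13% had a lower log2 ratio than Epx. Among the haem peroxidases fixed for comparison, the only other gene past the filter was Mpo, the peroxidase of neutrophils and monocytes, at 585 scaled CPM in EVI1+18 and 539 in EVI1-WT. The level of Mpo was 1.09-fold higher in EVI1+18 (1.06 to 1.11), which was not called.

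Prg2 encodes major basic protein, the core of the granule crystal, and Prg3 its paralogue. They are neighbours on the plus strand, Prg2 at chr2:84980461-84983632 and Prg3 at chr2:84988215-84993886. Prg2 had 1693 counts in EVI1+18 and 7310 in EVI1-WT, a level 4.63-fold lower in EVI1+18 (4.39 to 4.88). Prg3 had 175 counts in EVI1+18 and 699 in EVI1-WT, a level 4.28-fold lower in EVI1+18 (3.62 to 5.08). The 2 intervals overlap. No stretch of 50 bases of Epx, Prg2 or Prg3 transcripts was found in a transcript of another gene, so reads of at least that length that match one of them exactly have no second gene to go to.

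The genes on either side of Prg2 and Prg3 did not follow them. Slc43a3, a purine nucleobase transporter gene at chr2:84936579-84958509, had 2378 counts in EVI1+18 and 796 in EVI1-WT, and was called higher by 2.79-fold (2.57 to 3.03). P2rx3, an ATP-gated channel gene on the opposite strand at chr2:84998583-85037462, had 52 counts in EVI1+18 and 6 in EVI1-WT, and was called higher by 8.09-fold (3.48 to 23.0). The lower counts of the 2 proteoglycan genes therefore lay between 2 genes with more counts in EVI1+18. Beside Epx, Mks1 had 130 counts in EVI1+18 and 145 in EVI1-WT and was not called, and Olfr462 had 0 in both.

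The Ear genes encode secreted ribonucleases that the mouse holds in many near-identical copies on chromosome 14. Their coding starts are shown because the likeness between them decides how far their counts can be told apart. Each line gives the first 150 coding bases from the GENCODE M21 transcript on GRCm38, and capitals mark bases unlike Ear6.
Ear6: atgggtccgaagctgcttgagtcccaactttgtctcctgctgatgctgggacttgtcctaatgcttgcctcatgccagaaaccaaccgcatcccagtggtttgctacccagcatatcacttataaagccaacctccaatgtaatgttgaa
Ear1: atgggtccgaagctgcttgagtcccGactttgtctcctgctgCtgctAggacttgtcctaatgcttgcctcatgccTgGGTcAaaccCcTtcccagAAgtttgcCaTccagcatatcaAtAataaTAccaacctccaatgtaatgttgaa
Ear2: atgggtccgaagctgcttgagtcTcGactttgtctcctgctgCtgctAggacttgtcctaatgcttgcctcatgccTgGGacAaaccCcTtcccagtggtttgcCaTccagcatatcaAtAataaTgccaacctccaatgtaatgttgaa
Ear10: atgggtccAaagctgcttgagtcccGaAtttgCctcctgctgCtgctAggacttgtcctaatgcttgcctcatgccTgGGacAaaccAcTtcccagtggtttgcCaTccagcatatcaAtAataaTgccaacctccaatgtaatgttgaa
Over these 150 bases Ear1 differed from Ear6 at 18 positions, Ear2 at 15 and Ear10 at 17. Over the whole coding sequence Ear6 was 87.3% to 87.6% identical to the other 3 genes. Ear2 and Ear10 were 97.0% identical to each other, Ear1 and Ear2 95.1%, and Ear1 and Ear10 94.4%. Of the 50-base stretches of its transcripts, Ear1 shared 57.4% with other genes, Ear2 41.5% and Ear10 39.9%, whereas Ear6 shared 0.954%.

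Ear6, at chr14:51853699-51854643 on the plus strand, carried nearly all the counts of this family in both libraries. It had 66 counts in EVI1+18 and 213 in EVI1-WT, a level 3.46-fold lower in EVI1+18 (2.61 to 4.63). It made up 97.1% of the counts of the 4 Ear genes in EVI1+18 and 92.2% in EVI1-WT. Ear2 had 2 counts in EVI1+18 and 17 in EVI1-WT, a ratio 9.11-fold lower in EVI1+18 with an interval of 2.16 to 81.3, and stayed under the filter. Ear1 had 0 counts in EVI1+18 and 1 in EVI1-WT, and Ear10 had 0 in both. A count of 0 allows up to 3 counts, or 0.1398 scaled CPM in EVI1+18 and 0.1498 in EVI1-WT, so no fold is given for Ear1 and Ear10. Summed, the 4 genes had 68 counts in EVI1+18 and 231 in EVI1-WT, 3.64-fold lower in EVI1+18 (2.77 to 4.84).

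How reads that match several copies were treated is not given in the sources used here, so the counts of Ear1, Ear2 and Ear10 are uncertain and low values for them may be incomplete. The annotation holds 17 genes and pseudogenes of this family, of which 10 are pseudogenes with 0 counts. Outside the 4 genes, Rnase2a had 0 counts in EVI1+18 and 3 in EVI1-WT, and Rnase2b and Ear14 had 0 in both. Of the more distant ribonucleases, Rnase6, a secreted ribonuclease of monocytes and macrophages, was called higher in EVI1+18, at 54.0 scaled CPM there and 13.8 in EVI1-WT, 3.91-fold (3.42 to 4.47). Rnase12 stood at 15.1 scaled CPM in EVI1+18 and 13.6 in EVI1-WT and was not called. Rnase4, at 33 counts in EVI1+18 and 19 in EVI1-WT, and Ang (angiogenin), at 5 counts in EVI1+18 and 22 in EVI1-WT, were not called either. Of the 4 tested genes of this list 1 was called higher and 0 lower, and their log2 ratios had a median of 0.40.

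Il5ra encodes the alpha chain that makes the receptor specific for interleukin 5, at chr6:106710357-106749037 on the minus strand. It had 31 counts in EVI1+18 and 116 in EVI1-WT, a level 4.01-fold lower in EVI1+18 (2.68 to 6.17). In EVI1+18 it lay close to the filter, at 1.44 scaled CPM. The interval of Il5ra overlapped those of Prg2, Prg3 and Ear6.

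The beta chains of this receptor family were also lower in EVI1+18, at far higher levels. Csf2rb, the beta chain shared by the receptors for interleukin 5, interleukin 3 and GM-CSF, stood at 797 scaled CPM in EVI1+18 and 2734 in EVI1-WT, 3.43-fold lower. Csf2rb2, a second beta chain of the mouse that serves interleukin 3 alone, stood at 466 in EVI1+18 and 2087 in EVI1-WT, 4.48-fold lower. Part of their sequence is common to other genes (12.3% of the 50-base stretches of Csf2rb and 18.9% of those of Csf2rb2), so reads may be shared between these 2 paralogues. The other alpha chains were not called: Csf2ra, for GM-CSF, stood at 78.2 scaled CPM in EVI1+18 and 49.8 in EVI1-WT, and Il3ra, for interleukin 3, at 26.4 in EVI1+18 and 47.4 in EVI1-WT. The counts of Il5ra per count of Csf2rb within each library had a ratio of 0.856 for EVI1+18 over EVI1-WT (0.556 to 1.28). With 31 counts of Il5ra in EVI1+18 this interval is wide, and it holds 1. The counts of Il5ra per count of Csf2ra were 6.29-fold lower in EVI1+18 (4.16 to 9.74).

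Downstream of the receptor, Jak2, a kinase of this receptor family, was called lower by 2.82-fold, at 138 scaled CPM in EVI1+18 and 389 in EVI1-WT. Jak1, another such kinase, was 1.32-fold lower and was not called. Socs1, a feedback inhibitor of cytokine signalling, was called lower by 3.13-fold, at 25.4 in EVI1+18 and 79.4 in EVI1-WT. Pim1, a kinase gene induced by STAT5, stood at 500.4 scaled CPM in EVI1+18 and 381 in EVI1-WT, and Bcl2l1, a survival gene, at 105 in EVI1+18 and 83.2 in EVI1-WT, and neither was called. Over the 15 genes of the receptor and signalling list, Il5ra included, 5 were called lower and 0 higher. Their median log2 ratio was -0.64.

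Siglecf lies at chr7:43351341-43359531 on the plus strand. It had 517 counts in EVI1+18 and 114 in EVI1-WT, a level 4.23-fold higher in EVI1+18 (3.45 to 5.23). Its log2 ratio was 2.06, and 96.9% of the genes tested had a lower one. Its neighbours Zfp715, with 350 counts in EVI1+18 and 307 in EVI1-WT, and Siglecg, a lectin mainly of B cells with 70 counts in EVI1+18 and 117 in EVI1-WT, were not called.

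Of the 6 Siglec genes tested, Siglecf included, 3 were called higher and 0 lower. With a 99% interval, or with a filter of 5 scaled CPM, 2 were called higher. The log2 ratios of the 6 lay above 0 for 3 genes and below 0 for 3, with a median of 0.72. Cd22, a lectin best known from B cells, had 255 counts in EVI1+18 and 15 in EVI1-WT, 15.9-fold higher (9.44 to 28.8). Siglec1, a lectin of macrophages, had 48 counts in EVI1+18 and 10 in EVI1-WT, 4.48-fold higher (2.24 to 9.93). Cd33, a myeloid lectin, stood at 39.2 scaled CPM in EVI1+18 and 57.3 in EVI1-WT, and Mag, the myelin-associated lectin, at 6.57 in EVI1+18 and 9.59 in EVI1-WT, and neither was called.

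**Figure D2:**
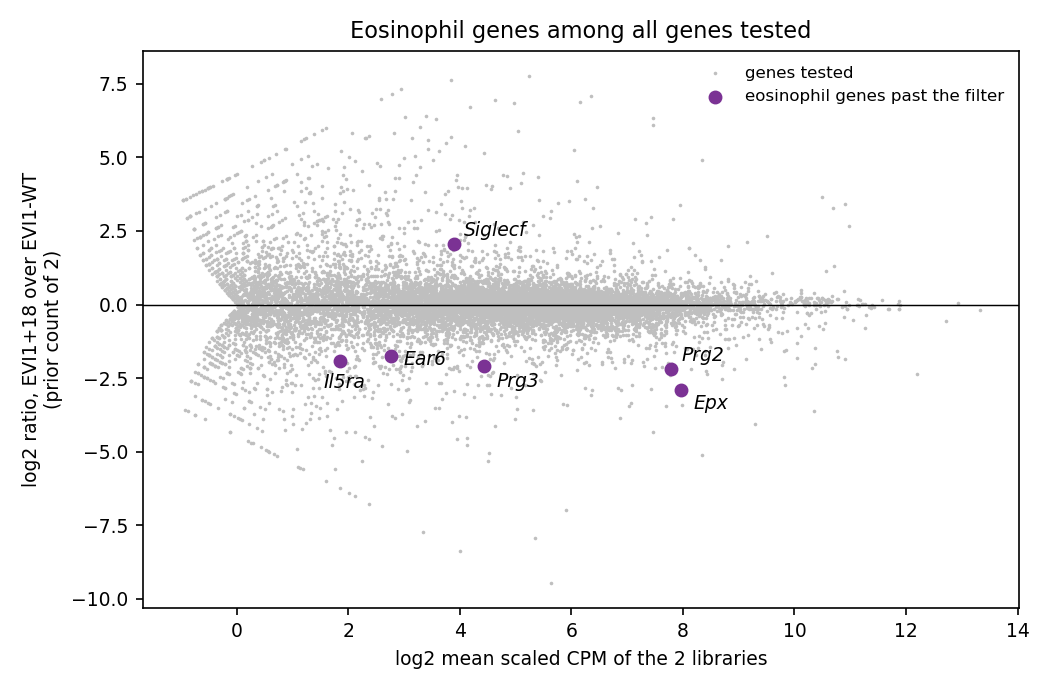
Log2 ratio of EVI1+18 over EVI1-WT (prior count of 2) against the log2 mean scaled CPM for the 13183 genes tested (grey) and the 6 eosinophil genes past the filter (purple). Epx has the lowest log2 ratio of the 6, at -2.90, and Siglecf alone lies above 0, at 2.06.

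Per length of transcript, Prg2 was the most abundant of the 9 genes in both libraries, at 244 TPM in EVI1+18 (232 to 256) and 1114 TPM in EVI1-WT (1089 to 1140). Epx came next, at 55.8 TPM in EVI1+18 and 413 TPM in EVI1-WT. In EVI1+18, Siglecf at 22.4 TPM and Prg3 at 22.2 TPM followed, with overlapping intervals (20.5 to 24.4 and 19.1 to 25.8), then Ear6 at 8.43 TPM and Il5ra at 1.05 TPM. In EVI1-WT, Prg3 at 94.1 TPM and Ear6 at 28.8 TPM stood above Siglecf at 5.22 TPM, whose interval overlapped that of Il5ra at 4.14 TPM. The order of the other genes past the filter was the same in both libraries, and Siglecf alone changed place in it.

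Ratios of 2 genes within a library do not depend on how the libraries are scaled. The gene pairs given here were chosen after their values were seen. Per count of Prg2 there were 0.748 counts of Epx in EVI1+18 and 1.21 in EVI1-WT, so the share of Epx was 1.62-fold lower in EVI1+18 (1.495 to 1.75). For Prg3, Ear6 and Il5ra the corresponding ratios of EVI1+18 over EVI1-WT were 1.08 (0.903 to 1.29), 1.34 (0.994 to 1.78) and 1.15 (0.747 to 1.73), all with intervals that hold 1. Siglecf per count of Prg2 was 19.6-fold higher in EVI1+18 (15.8 to 24.4). The 9 genes together made up 0.0179% of the counts of EVI1+18 and 0.0846% of those of EVI1-WT. Of their 3751 counts in EVI1+18 and 17323 in EVI1-WT, most came from Epx and Prg2.

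Other genes associated with eosinophils leaned the same way as the granule genes. Of 10 such genes 8 were tested, of which 6 were called lower and 0 higher. The median log2 ratio of the 8 was -1.48. Il1rl1, the receptor for interleukin 33, stood at 22.0 scaled CPM in EVI1+18 and 239 in EVI1-WT, 10.8-fold lower. Hrh4, a histamine receptor, had 4 counts in EVI1+18 and 64 in EVI1-WT, 17.1-fold lower (6.38 to 64.8). Srgn, the proteoglycan core that packs granule contents, stood at 867 scaled CPM in EVI1+18 and 2610 in EVI1-WT, 3.01-fold lower. These 3 are also made by mast cells or basophils. Alox15, a lipoxygenase of eosinophils and macrophages, had 40 counts in EVI1+18 and 139 in EVI1-WT, 3.72-fold lower (2.60 to 5.43). Ccr3, the eotaxin receptor of mature eosinophils, stayed under the filter, with 17 counts in EVI1+18 and 18 in EVI1-WT. Cultures with abundant Epx and Prg2 transcripts thus held few of Ccr3 in either library.

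**Figure D3:**
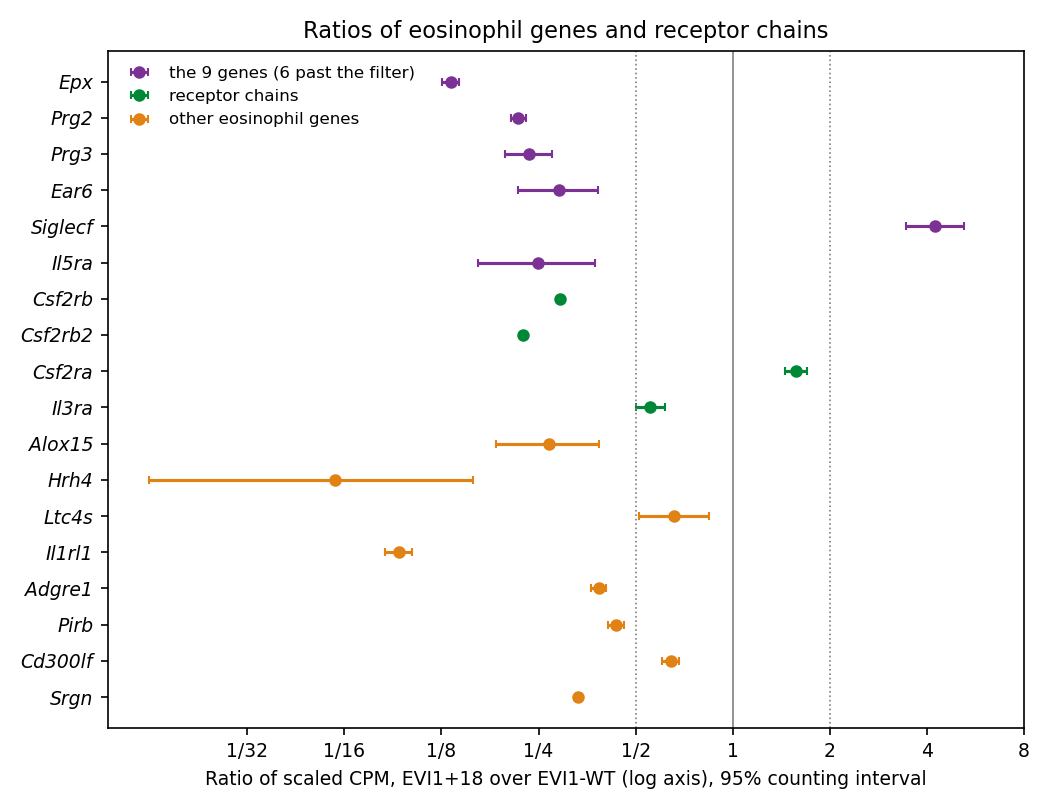
Ratio of scaled CPM, EVI1+18 over EVI1-WT (log axis), with 95% counting intervals, for the 6 eosinophil genes past the filter, the receptor chains of the interleukin 5 family and other eosinophil genes; 1 library per form. Dotted lines mark 1/2 and 2; Siglecf lies to the right of the upper line and Csf2ra between the lines.

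The transcription factors of the eosinophil lineage were called in both directions. Of 14 tested, 3 were called lower and 3 higher, while 11 had a log2 ratio below 0 and 3 above. Gata2, at 376 scaled CPM in EVI1+18 and 769 in EVI1-WT, was 2.04-fold lower (1.99 to 2.10) and narrowly missed the call. The median log2 ratio of the 14 was -0.31. Cebpe, a factor of terminal granulocyte maturation, stood at 15.6 scaled CPM in EVI1+18 and 62.9 in EVI1-WT, 4.03-fold lower. Id2, an inhibitor of E proteins, stood at 40.5 in EVI1+18 and 180.3 in EVI1-WT, 4.45-fold lower, and Trib1, a pseudokinase that lowers C/EBP alpha protein, was 2.58-fold lower. Gata1, which mouse eosinophils require, was 2.54-fold higher, at 157 scaled CPM in EVI1+18 and 61.7 in EVI1-WT. Zfpm1 encodes FOG1, a cofactor of GATA1 known in chicken progenitors to block eosinophil commitment, and was 7.44-fold higher, at 397 in EVI1+18 and 53.4 in EVI1-WT. Irf8, a factor of monocyte development, had 223 counts in EVI1+18 and 40 in EVI1-WT, 5.20-fold higher. Gata1 and Zfpm1 also serve red cell precursors, whose markers were higher in the same library. The part of red cell precursors in the counts of Gata1 and Zfpm1 was not tested.

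Markers of other cell types differed between the libraries in both directions. Of 13 tested markers of mast cells and basophils 8 were called lower and 3 higher, and their summed level was 499 scaled CPM in EVI1+18 and 4879 in EVI1-WT. Cpa3, a mast cell carboxypeptidase, was 12.3-fold lower in EVI1+18, Hdc, the enzyme that makes histamine, 16.5-fold lower, and Mcpt8, a basophil protease, 10.7-fold lower. Cpa3 at 2409 and Hdc at 1178 scaled CPM held most of the summed level in EVI1-WT. The median log2 ratio of the 13 tested markers was -1.37. Mcpt1, a mucosal mast cell protease with 84 counts in EVI1+18 and 1 in EVI1-WT, was 78.4-fold higher (13.7 to 3133), and Prss34, a protease of basophils and mucosal mast cells, 4.64-fold higher. Kit, the receptor for stem cell factor, was 3.76-fold higher. Tpsab1, a tryptase, had 0 counts in both. Per count of Cpa3 there were 0.403 counts of Prg2 in EVI1+18 and 0.151 in EVI1-WT, 2.66-fold more in EVI1+18 (2.50 to 2.83), and per count of Mcpt8 2.30-fold more (2.11 to 2.51). The fall of Prg2 was thus smaller than that of these 2 markers. Of the same list, Hdc, Fcer1a (11.1-fold lower) and Cd200r3 (6.60-fold lower) also fell more than Prg2. Tpsb2 (3.84-fold lower, 2.93 to 5.11), Il4 (2.59-fold), Cma1 (2.49-fold) and Ms4a2 (1.95-fold, not called) fell less. Mcpt2 was 2.44-fold higher and was not called. How Prg2 compares with this list therefore depends on the marker taken.

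Of 15 tested neutrophil markers 8 were called lower and 0 higher, with a summed level of 2163 scaled CPM in EVI1+18 and 4379 in EVI1-WT. Ly6g, a neutrophil surface antigen, had 35 counts in EVI1+18 and 550 in EVI1-WT, 16.8-fold lower. The other 7 were not called. Among them Prtn3, a protease of early granulocytes, was 1.58-fold higher in EVI1+18 (1.501 to 1.66), and Mmp9, a gelatinase with 40 counts in EVI1+18 and 13 in EVI1-WT, was 2.87-fold higher (1.505 to 5.85). Prg2 set against 2 genes of this list gave different answers. Per count of Ngp, a neutrophil granule protein gene that was itself called lower, the ratio of Prg2 for EVI1+18 over EVI1-WT was 0.9396 (0.871 to 1.01), and per count of Mpo Prg2 was 5.03-fold lower in EVI1+18 (4.74 to 5.33). Of 14 tested erythroid markers 13 were called higher and 0 lower, with a summed level of 12915 scaled CPM in EVI1+18 and 1427 in EVI1-WT. The part of these cell types in the eosinophil results was not tested.

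Macrophage markers bear on Siglecf, which is not particular to eosinophils. Of 10 tested macrophage and monocyte markers 2 were called lower and 3 higher, with a summed level of 2967 scaled CPM in EVI1+18 and 2146 in EVI1-WT. Lyz2, the lysozyme gene of myeloid cells, was 2.48-fold higher, at 2397 scaled CPM in EVI1+18 and 967 in EVI1-WT. It held most of the sum in EVI1+18, but not in EVI1-WT. Without Lyz2 the sum was 569.7 scaled CPM in EVI1+18 and 1179 in EVI1-WT, so its direction turned. The median log2 ratio of the list was -0.43 and its mean 0.20. Mertk, a receptor for dying cells, was 10.5-fold higher, Fcgr1, the high-affinity receptor for immunoglobulin G, 9.24-fold higher, and Ly6c2, a monocyte antigen, 4.58-fold lower. Adgre1, a surface antigen of macrophages and eosinophils, was 2.60-fold lower and is also counted among the other eosinophil genes. C1qa, a complement gene of mature macrophages, had 0 counts in both.

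Among markers of the macrophages that carry Siglec-F, 5 of 9 were tested, 1 was called lower and 2 higher. Fabp4, a fatty acid-binding protein gene, had 144 counts in EVI1+18 and 14 in EVI1-WT, 9.60-fold higher (5.54 to 18.0). Marco, a scavenger receptor gene, had 23 counts in EVI1+18 and 1 in EVI1-WT, 21.5-fold higher (3.49 to 884). Under a filter of 5 scaled CPM Marco was not tested, and 1 gene of the list was called higher. Pparg, the factor that directs alveolar macrophages, had 365 counts in EVI1+18 and 163 in EVI1-WT and was not called. Chil3, a chitinase-like protein gene also active in neutrophils, was 5.48-fold lower and held most of the summed level of 318 scaled CPM in EVI1+18 and 1540 in EVI1-WT. Without Chil3 the sum was 41.4 scaled CPM in EVI1+18 and 25.3 in EVI1-WT, so its direction turned. Krt79 had 0 counts in both, and Car4, Plet1 and Cidec had at most 7. The part of macrophages in the higher Siglecf count was not tested.

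**Figure D4:**
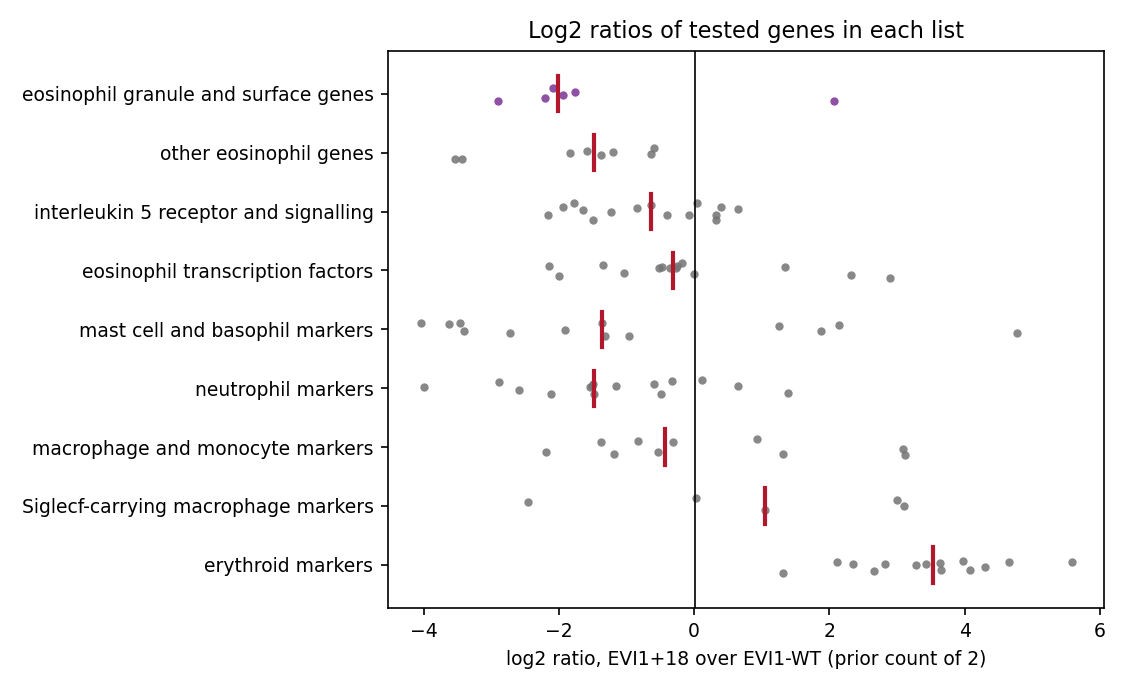
Log2 ratio of EVI1+18 over EVI1-WT (prior count of 2) for each tested gene of the eosinophil, pathway and cell type lists; each point is 1 gene, from 1 library per form, and the bar of each list is its median. The erythroid median, at 3.54, is the highest, and the median of the 6 eosinophil genes past the filter lies at -2.01.

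The start regions of the genes are shown because genes that differed between the libraries in opposite directions can be compared there. RefSeq windows of 300 bases (GRCm38.p6, 250 before the start and 50 after it) were at hand for 8 of the 9 genes. Prg2 had none and was not searched. For Ear1, Ear6 and Ear10 the RefSeq start differs from the start of the GENCODE gene. Positions given here are from the RefSeq start. The windows are chr11:87875487-87875786 on the minus strand for Epx, chr2:84987965-84988264 on the plus strand for Prg3, chr14:51853518-51853817 on the plus strand for Ear6, chr6:106748988-106749287 on the minus strand for Il5ra and chr7:43351091-43351390 on the plus strand for Siglecf. Capitals mark GATAA, the core recognised by GATA factors, on either strand (TTATC on the other), and in Epx TATAAA, the TATA box, on the gene's strand.
Epx: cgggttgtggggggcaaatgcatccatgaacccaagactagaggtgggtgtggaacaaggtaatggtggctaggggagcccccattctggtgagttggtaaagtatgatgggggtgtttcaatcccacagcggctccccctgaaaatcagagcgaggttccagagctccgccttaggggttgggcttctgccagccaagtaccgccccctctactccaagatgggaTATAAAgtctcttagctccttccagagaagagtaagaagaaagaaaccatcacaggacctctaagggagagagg
Prg3: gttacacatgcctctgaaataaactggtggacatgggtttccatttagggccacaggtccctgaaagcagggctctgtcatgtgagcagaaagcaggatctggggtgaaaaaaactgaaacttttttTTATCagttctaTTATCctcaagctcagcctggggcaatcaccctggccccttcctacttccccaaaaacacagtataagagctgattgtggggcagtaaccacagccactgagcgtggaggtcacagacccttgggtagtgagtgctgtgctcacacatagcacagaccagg
Ear6: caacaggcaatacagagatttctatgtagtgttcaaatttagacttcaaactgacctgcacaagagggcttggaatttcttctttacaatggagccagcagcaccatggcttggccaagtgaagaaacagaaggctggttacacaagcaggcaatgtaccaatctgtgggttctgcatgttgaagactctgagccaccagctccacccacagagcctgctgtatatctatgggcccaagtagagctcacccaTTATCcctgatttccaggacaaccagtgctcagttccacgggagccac
Il5ra: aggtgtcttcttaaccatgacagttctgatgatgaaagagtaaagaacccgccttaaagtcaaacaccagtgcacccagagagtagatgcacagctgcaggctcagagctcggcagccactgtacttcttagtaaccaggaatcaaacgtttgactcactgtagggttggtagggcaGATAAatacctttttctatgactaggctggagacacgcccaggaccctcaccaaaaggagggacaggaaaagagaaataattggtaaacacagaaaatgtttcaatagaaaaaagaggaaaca
Siglecf: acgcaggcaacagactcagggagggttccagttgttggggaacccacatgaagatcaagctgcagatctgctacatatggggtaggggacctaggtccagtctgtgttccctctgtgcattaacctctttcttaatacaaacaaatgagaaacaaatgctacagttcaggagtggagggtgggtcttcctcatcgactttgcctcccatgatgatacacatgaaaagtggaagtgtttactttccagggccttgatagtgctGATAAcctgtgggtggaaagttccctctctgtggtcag
The letters GATAA or TTATC occurred in 7 of the 8 windows, all but that of Epx, and in 25.4% of all 32851 windows. The 4 Ear windows are 79.0% to 97.0% identical, so they do not count separately. Prg3 had 2 matches, at -123 and -111 from the start, Il5ra 1 at -73, and Ear6 1 at 3 and Siglecf 1 at 13 bases past the start. Siglecf, which was higher in EVI1+18, and Il5ra, which was lower, both held a match. Whether a match bears on the level of either gene was not tested. TATAAA occurred in the Epx window alone, at -24, and in 8.32% of all windows.

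TTGCNNAA, a C/EBP core searched on both strands, occurred in 3 windows (Ear1, Ear2 and Ear10) and in 10.8% of all windows. GAGGAA, a core of PU.1 searched on both strands, occurred in 2 (Il5ra and Siglecf) and in 28.3% of all windows. GACAAGATA, a sequence bound by EVI1 whose end overlaps the GATA core, occurred in 0 of the 8 windows and in 0.119% of all windows. A match is a run of letters and not a bound site, and a missing match says only that those letters are not in these 300 bases.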

How the data were processed

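The values are raw counts of reads per Ensembl gene, which the authors deposited without normalization, 1 column for each of the 2 libraries. Per the submitters' processing notes, the genome build was GRCm38 and the tools were edgeR, featureCounts, Subread, SAMtools and HISAT2 2.2.1. Whether counting used strand, how it treated reads with several matches and which annotation it used is not given in the sources used here. Libraries were assigned to groups by the vector in their labels.

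Libraries were scaled with edgeR 4.0.16 (TMM, R 4.3.3). Ratios carry 95% exact (Clopper-Pearson) counting intervals from scipy 1.17.1. Ratios of 2 genes within a library carry exact conditional intervals, or Woolf intervals where counts were high. These intervals, and the limit for a count of 0, cover counting error only: without molecular identifiers, reads cannot be taken as independent molecules. With 1 library a group no test across replicates could be run. Log2 ratios used a prior count of 2, so those of low genes are shrunk, and folds used none. TPM used the merged exon length of GENCODE M21.

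The 9 genes and the other lists were chosen with earlier results of these data known. Besides the 9 genes, the genes named are the ribonucleases, receptor chains and Siglecs past the filter, the neighbours of Epx, Prg2 and Siglecf, and up to 3 genes in each direction of every other list by the interval bound nearest to 1. Some genes the rule takes are not given. A few were named after their values were seen (Ccr3, Alox15, Jak2, Gata2 and Ngp among them). Alternatives were other scalings, filters, intervals, prior counts and lengths, and library totals without the adult globin genes, which was chosen after seeing the data.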

Additional observations from a re-analysis of the deposited data

How the results depend on the processing

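The counts of eosinophil genes, 5 lower and 1 higher in EVI1+18, were the same under DESeq2 size factors, total counts, upper-quartile scaling, a filter of 5 scaled CPM, a 99% interval and the ratio without an interval. With no filter 6 were lower, since Ear2 was then counted. Over those scalings and totals without adult globins, the fold of Epx ranged from 7.08 to 7.46 lower, beside 7.49 with TMM. That of Prg2 ranged from 4.37 to 4.61 lower, beside 4.63, and that of Siglecf from 4.25 to 4.48 higher, beside 4.23. The 4.37 of Prg2, from totals without adult globins, lay outside its interval with TMM (4.39 to 4.88). Over all genes, 666 were higher, against 431 with the filter of 5 scaled CPM, which tests fewer genes. The ratio without an interval gave 1105 lower and 1037 higher, beside 672 lower and 666 higher, since it admits genes whose interval reaches past 2-fold towards 1. The order by TPM was the same with the longest transcript. With 1 library a form, the spread between cultures is unknown, and at these depths Ear1, Ear2 and Ear10 lay under the limit of 3 counts in EVI1+18. No paired analysis was possible because each form has 1 library.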

Other observations

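Cytokines that act on eosinophils were measured in the same libraries. Il5, Il3, Il33 and Ccl11 (eotaxin) had 0 counts in both libraries. Il13, a type 2 cytokine, had 72 counts in EVI1+18 and 527 in EVI1-WT, 7.84-fold lower in EVI1+18 (95% counting interval 6.12 to 10.2), and Il4, also listed as a basophil marker, had 242 counts in EVI1+18 and 586 in EVI1-WT, 2.59-fold lower. Ccl7, a chemokine that binds CCR3 among other receptors, had 562 counts in EVI1+18 and 171 in EVI1-WT, 3.07-fold higher (2.58 to 3.66). Ccl24, another eotaxin, had 172 counts in EVI1+18 and 186 in EVI1-WT and was not called. Of the 4 genes of this list past the filter, 2 were called lower and 1 higher. Of the lymphoid markers, Cd79b alone passed the filter, with 45 counts in EVI1+18 and 65 in EVI1-WT. Of the 2 stromal markers past the filter, Pdgfrb was called lower, with 19 counts in EVI1+18 and 80 in EVI1-WT, and Pecam1 was not called.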
